A study of Mus musculus with 10 samples.

Results

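The chromatin around Sall1 was examined for binding of Six2 and β-catenin in nephron progenitors of the mouse kidney. The regions described are all peaks of 4 ChIP-seq peak lists that overlap a 700 kb window of chromosome 8, chr8:91400000-92100000 in the mm9 build. The window was chosen from the peaks themselves, with their positions and ranks known, so the counts in it are given as a description and carry no test. It held 18 of the 10348 peaks in the lists. Merged wherever they shared at least 1 bp, these made 9 of 7666 sites, which are numbered 1 to 9 here in order of position. Sall1 lies near 91.55 to 91.57 Mb on the minus strand, so its start is at the higher coordinate and positions above 91.57 Mb are upstream. The start is known here only to about 10 kb, and distances from it carry that error.

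The progenitors were sorted by FACS at E16.5 from embryonic kidneys of a mixed background that carried the transgene Six2GFPcre. All groups share that transgene, which marks cells by the activity of Six2 regulatory sequence on a BAC. The 2 Six2 libraries came from cells used directly after the sort. The 2 β-catenin libraries came from sorted cells that were pelleted and kept for 24 h in DMEM with 10% FBS and 4 µM BIO dissolved in DMSO. BIO blocks GSK3, the kinase that marks β-catenin for destruction. The antibody and the culture changed together and cannot be told apart. The 4 input and 2 rabbit IgG mock samples of the series were not analysed here. Nothing in the labels ties the paired libraries to separate sorts or litters, so differences between them may be technical. Gene expression was not measured, so the cell type could not be checked against its markers.

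Sall1 encodes a zinc finger transcription factor of the spalt family. It is expressed in the nephron progenitors of the kidney, and its loss in the mouse leads to kidney agenesis or severe dysgenesis. Six2 is the homeodomain factor that maintains these progenitors. β-catenin is the co-activator of canonical Wnt signalling, which reaches DNA through TCF/LEF factors and starts the conversion of progenitors to epithelium. Transcription factors often act on a gene from enhancers far from its start, and several such elements can serve one gene.

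The lists give a chromosome, a start and an end for each peak, with no score or read count, so the depth behind a peak is unknown. Six2 replicates 1 and 2 held 5645 and 1622 peaks, and β-catenin replicates 1 and 2 held 1873 and 1208. Row number served as the rank of a peak, with row 1 first, and is given as a percent of the list where lists of different length are set side by side. The first 10% of each list was found in the other library of its antibody more often than the last 10%. The shares were 76.4% against 4.79% in Six2 replicate 1 and 98.1% against 74.7% in Six2 replicate 2, so that in the latter even the last rows were mostly found. They were 85.6% against 4.81% in β-catenin replicate 1 and 90.8% against 20.8% in β-catenin replicate 2.

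The start of Sall1 is shown first, since 1 Six2 peak lay near it. RefSeq gives Sall1 3 starts in build GRCm38.p6, on the minus strand. The 250 bases before the start that lies farthest upstream are printed 5′ to 3′, in lower case throughout because no motif searched was found in them.

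Sall1 promoter: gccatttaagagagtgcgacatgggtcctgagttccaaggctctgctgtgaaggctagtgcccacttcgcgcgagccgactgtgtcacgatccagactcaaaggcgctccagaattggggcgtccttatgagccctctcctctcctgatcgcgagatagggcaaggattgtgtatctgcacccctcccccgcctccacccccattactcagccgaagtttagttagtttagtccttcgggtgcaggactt

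This stretch had a GC content of 56.4% and 13 CG pairs, and those before the other starts 74.4% and 78.4% GC, against a median of 52.4% over 32851 promoters of the same length. All 3 were searched on both strands for the MEF3 motif TCANGTTTC and the core TGATAC, both bound by homeodomain proteins of the Six2 family, and for the TCF/LEF forms CTTTGAA and CTTTGAT. None of these was found in any of the 3 stretches. Over all promoters, 0.989% held the MEF3 motif, 4.64% the core and 7.48% a TCF/LEF form. The sequences of the mm9 peaks themselves were not used here.

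Within the window, most of the peaks lay far upstream of Sall1. The window, from 91.4 to 92.1 Mb, also reaches much farther upstream of the gene than downstream, as Sall1 lies near 91.55 to 91.57 Mb. A run of 4 Six2 sites that both libraries found, sites 6 to 9, stretched over 70.8 kb from 343 to 414 kb upstream of the start. It held the leading Six2 site of the window, site 7, at which both β-catenin libraries had a peak as well. Another β-catenin site that both libraries found, site 4, lay between the gene and the run, 238 kb upstream. No site within 250 kb of the start was found in both Six2 libraries. In Six2 replicate 1, 4 of its 9 peaks in the window were found in replicate 2 (44.4%), beside 24.0% over the whole list. All 4 window peaks of Six2 replicate 2 were found in replicate 1, beside 83.1%. Of the β-catenin peaks, 2 of 3 in replicate 1 and 2 of 2 in replicate 2 were found in the other library, beside 29.5% and 45.6%. The window's shares rest on 2 to 9 peaks chosen with their ranks known, and no test was made of them.

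**Figure D1:**
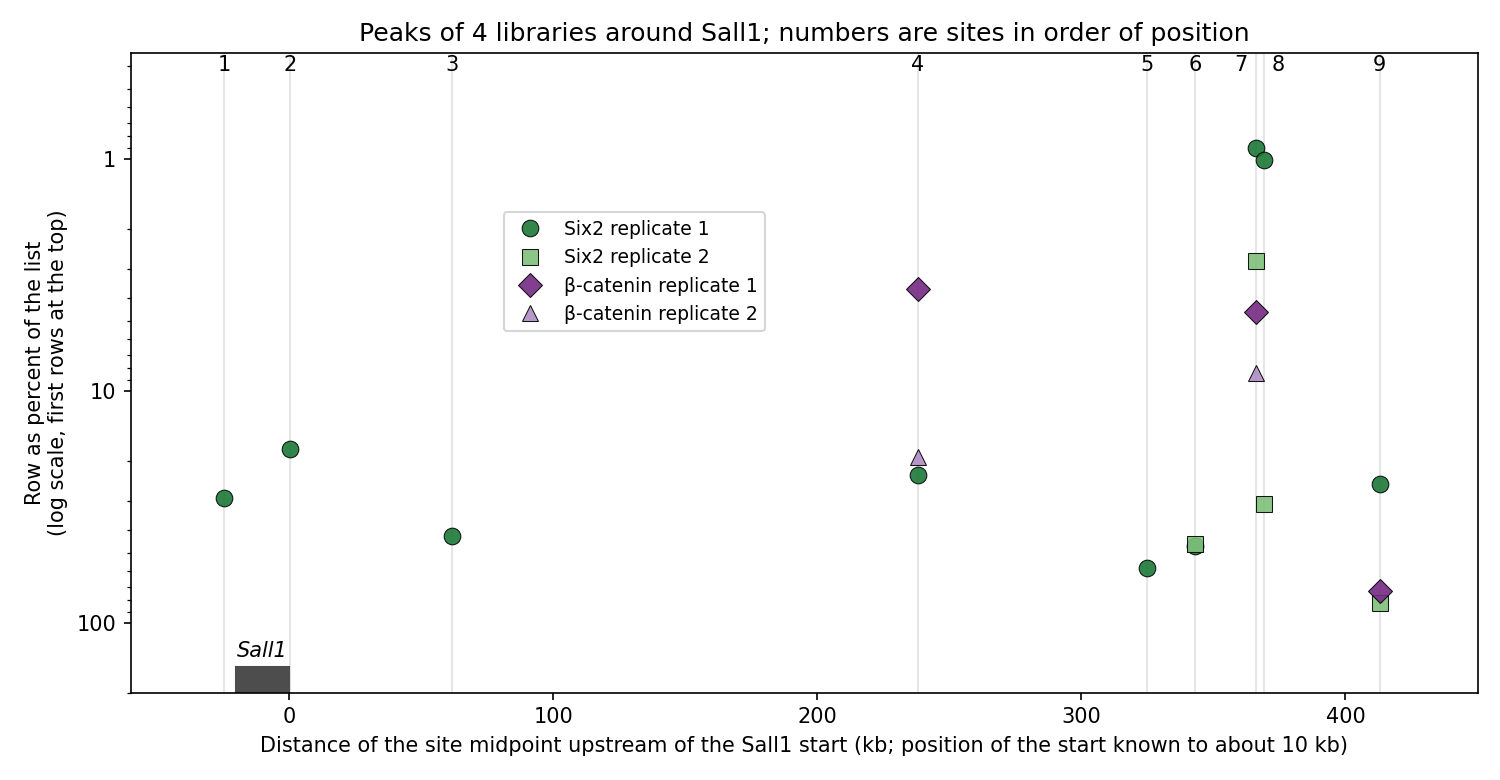
Each point is 1 peak, placed by the distance of its site upstream of the Sall1 start in kb (x axis) and by its row as a percent of its list on a log scale with the first rows at the top (y axis). Colours and shapes stand for the 4 libraries, the grey bar is Sall1, and the numbers at the top are the sites. The peaks of site 7 lie at 0.903 to 8.36% of their lists, and those near the gene come from Six2 replicate 1 alone.

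Site 7 was the place where all 4 lists coincided. It spanned chr8:91936033-91936284, 252 bp, with its midpoint 366 kb upstream of the start. It was row 51 in Six2 replicate 1, row 45 in Six2 replicate 2, row 86 in β-catenin replicate 1 and row 101 in β-catenin replicate 2. As percents of the lists these were 0.903, 2.77, 4.59 and 8.36%. The site was therefore within the first 10% of every list. On chromosome 8 it was the first of 301 peaks in Six2 replicate 1 and the second of 95 in replicate 2, and 7th of 114 and 7th of 74 in the β-catenin lists. By mean row number it was 27th of the 1348 reproducible Six2 regions, meaning those with a peak in both libraries. It was 65th of the 551 reproducible β-catenin regions. Over the series 126 sites, or 1.64% of all, had a peak in every list. By mean row number site 7 was the 4th of them, and by row number divided by list length the 5th.

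Site 8, only 3.19 kb farther from the gene, was a Six2 site with no β-catenin peak. It lay at chr8:91939276-91939431, 369 kb upstream. In Six2 replicate 1 it was row 57, against row 51 for site 7, and the second peak of the chromosome. In replicate 2 it was row 500, or 30.8% of the list, so the libraries ranked it very differently. The nearest β-catenin peaks were those of site 7, 3.06 kb away in both libraries. Among the 51 reproducible regions within the first 57 rows of Six2 replicate 1, 22 had no β-catenin peak (43.1%), beside 990 of all 1348 reproducible Six2 regions (73.4%). Reproducible Six2 regions this close to each other were few, with 48 of 1348 (3.56%) having a neighbour as near. They formed 24 pairs, of which 8 had a β-catenin peak on both members, 9 on neither, and 7 (29.2%) on 1 member, as here.

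Sites 6 and 9, at the ends of the run, stood lower in the lists. Site 6 spanned chr8:91912771-91913103, 343 kb upstream and 23.2 kb from site 7 by midpoints. It was row 2649 in Six2 replicate 1 and row 741 in replicate 2, near the middle of both lists at 46.9 and 45.7%. It had the widest peaks of the window, with 333 bp in replicate 1 and 255 bp in replicate 2. In replicate 1, 94.2% of the peaks of the list were no wider, and in replicate 2 72.9%. The nearest β-catenin peaks were those of site 7, 22.9 kb away. Site 9 spanned chr8:91983396-91983592, 413 kb upstream and 44.1 kb beyond site 8. It was row 1420 in Six2 replicate 1 (25.2%), row 1333 in replicate 2 (82.2%) and row 1365 in β-catenin replicate 1 (72.9%). β-catenin replicate 2 had no peak there, and its nearest one was that of site 7, 47.2 kb away. Six2 replicate 1 alone had it in the first 50% of its list, and it dropped out of the reproducible set when only the first 50% of each list was kept.

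**Figure D2:**
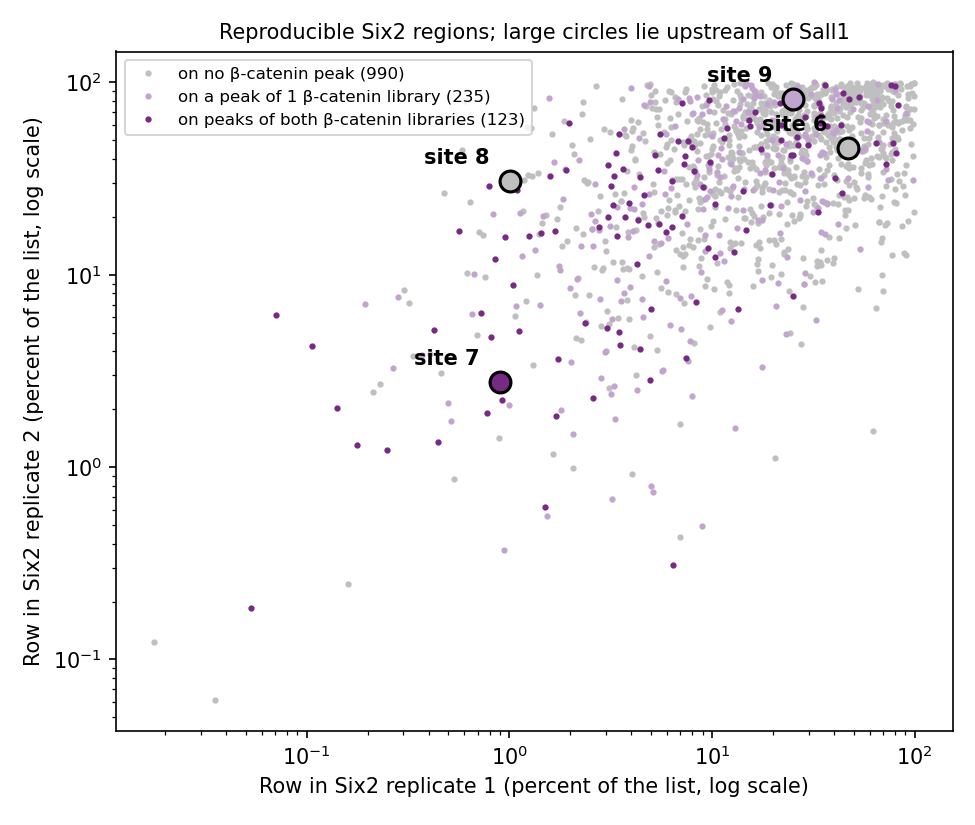
Each point is 1 of the 1348 reproducible Six2 regions, by its row in Six2 replicate 1 (x axis) and replicate 2 (y axis) as percents of the lists, both on log scales. Colours give the number of β-catenin libraries with a peak on the region, and the 4 large circles are sites 6 to 9. Site 7 lies at 0.903 and 2.77%, site 8 at 1.01 and 30.8%, and the other 2 in the dense upper right.

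Site 4 was led by β-catenin. It spanned chr8:91807392-91807615, 238 kb upstream of Sall1. It was row 68 in β-catenin replicate 1, or 3.63% of the list, and row 233 in replicate 2, or 19.3%. That made it the 103rd of the 551 reproducible β-catenin regions by mean row number, behind site 7. In β-catenin replicate 1 alone it stood ahead of site 7, with row 68 against 86, and in replicate 2 behind it, with row 233 against 101. Six2 replicate 1 had a peak of 44 bp there, at row 1305, or 23.1% of the list. Only 1.84% of that list was as narrow or narrower. Six2 replicate 2 had none. The combination of both β-catenin lists with Six2 replicate 1 alone occurred at 128 of the 7666 sites of the series. The same combination with Six2 replicate 2 alone occurred at 10.

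The 4 remaining sites were each found in Six2 replicate 1 alone. Site 2, at chr8:91570376-91570471, lay 0.423 kb upstream of the position taken as the start, which is less than the error of that position. It was row 1013, or 17.9% of the list. Site 1, at chr8:91545170-91545331, lay past the other end of the gene, 24.7 kb downstream of the start, at row 1645 (29.1%). Site 3, at chr8:91631455-91631502, was a peak of 48 bp 61.5 kb upstream, at row 2392 (42.4%). Site 5 was 325 kb upstream at row 3274 and preceded the run by 17.4 kb. None of them had a β-catenin peak. Sites found in a single list made up 73.3% of all sites of the series.

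Counted by antibody, 3 of the 9 sites (4, 7 and 9) had peaks of both, beside 9.99% of all sites. Of the 4 reproducible Six2 sites, 2 lay on a peak of at least 1 β-catenin library, beside 26.6% of all reproducible Six2 regions. Site 7 alone lay on a reproducible β-catenin region, beside 9.12%. Both reproducible β-catenin sites of the window overlapped a Six2 peak, beside 47.2%. These counts of 1 to 3 sites describe a chosen window and were not tested.

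The peaks of the antibodies at a shared site did not fall on exactly the same bases. At site 7 the midpoints of the Six2 libraries were 23.5 bp apart and those of the β-catenin libraries 7 bp apart. The β-catenin midpoints lay 49 to 79.5 bp nearer to Sall1 than the Six2 midpoints, more than the distance between libraries of either antibody. The mean midpoints of the antibodies were 64.25 bp apart. Among the 122 sites with exactly 1 peak in every list, the median of this distance was 37.5 bp (quartiles 21.9 and 74.2 bp), and 68.9% were no farther apart. At site 9 the β-catenin midpoint also lay on the gene side, by 34.5 bp from Six2 replicate 1 and 71.5 bp from replicate 2, while the Six2 libraries differed by 37 bp. At site 4 the Six2 midpoint fell between those of the β-catenin libraries, which were 56 bp apart. With peak widths of 44 to 224 bp at these 3 sites, all shifts were within the width of the wider peak compared.

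**Figure D3:**
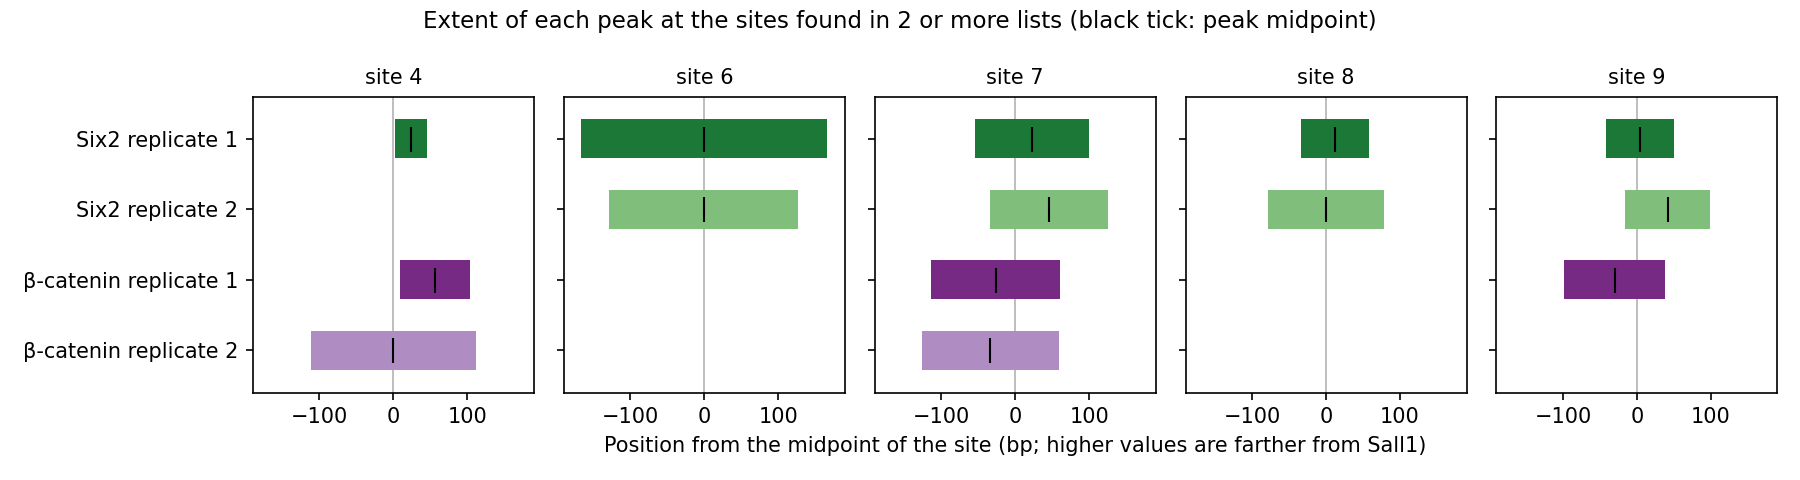
Bars show the extent of each peak in bp from the midpoint of its site (x axis, positive values farther from Sall1) for the 4 libraries (rows) at the 5 sites found in more than 1 list. Black ticks are peak midpoints. At site 7 the β-catenin bars are shifted toward the gene by 49 to 79.5 bp, and at sites 6 and 8 the β-catenin rows are empty.

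The window held more reproducible Six2 sites than most stretches of this length. The genome was tiled into 3640 windows of 700 kb that covered each chromosome between its outermost peaks. The grid was placed so that the Sall1 window was a whole tile, while other groups of sites could be split between tiles. Of these windows, 28 (0.769%) held at least 4 reproducible Six2 sites, and 2682 (73.7%) held 0. The highest count was 7. At least 9 sites of any kind were found in 87 windows (2.39%), and at least 3 sites with peaks of both antibodies in 33 (0.907%). The window was drawn around these sites, so its place in this distribution describes it and is no evidence of clustering.

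Reproducible Six2 regions were chained into runs wherever neighbouring midpoints were at most 50 kb apart. This gave 1212 runs, of which 1094 were single regions with no such neighbour. At this limit the largest size was 4 regions, reached by 2 runs, 1 of them the run upstream of Sall1. They made up 0.165% of all runs and 1.69% of the 118 runs with more than 1 region. The locus was chosen with its run known, so these shares describe it and are no evidence of clustering. The other run, at chr1:170312157-170341028, was tighter, with a span of 28.9 kb. It had a β-catenin peak on 0 of its 4 regions, against 2 of 4 at Sall1. Allowing gaps of up to 100 kb left the Sall1 run at 4 regions. At that limit 12 of 1133 runs, single regions included, were at least as large, and the largest held 5 regions. With gaps of up to 25 kb the Sall1 run shrank to sites 6 to 8. Then 6 of 1264 runs were at least as large, and the largest held 4 regions.

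**Figure D4:**
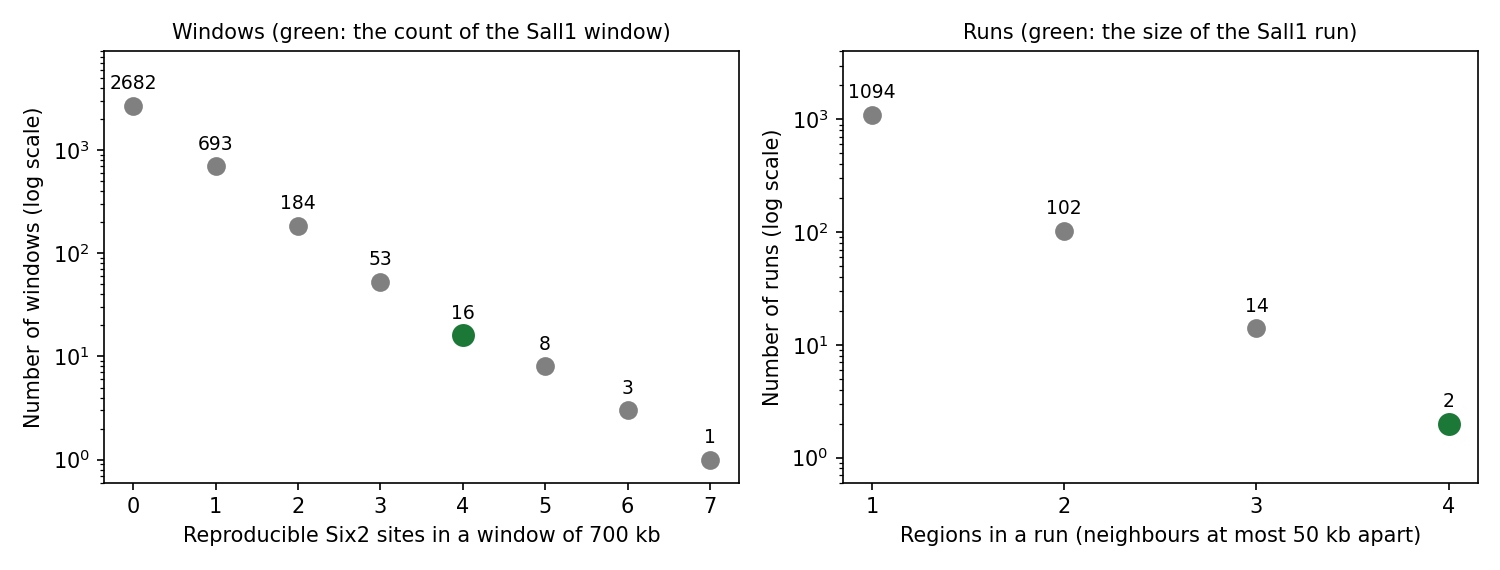
Left, the number of 700 kb windows (y axis, log scale) by the reproducible Six2 sites they hold (x axis). Right, the number of runs (y axis, log scale) by their size in regions (x axis). Green marks the values of the Sall1 window and run, which share them with other windows and with 1 other run: 16 windows hold exactly 4 sites and 2 runs have 4 regions.

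On the gene side, the reproducible Six2 region next to the run was 1670 kb away, so none lay at Sall1 or on its downstream side within the window. On the far side the next one was 146 kb from the run, just beyond the edge of the window. At the lower edge, the nearest peak inside was site 1, 145 kb from the edge, and the nearest outside was a Six2 replicate 1 peak 121 kb away, at row 5398. At the upper edge, site 9 ended 116 kb inside, and the first peak outside, of β-catenin replicate 1 at row 1340, began 21.9 kb beyond it. In the RefSeq gene table of GRCm38.p6 the genes next to Sall1 are Mir8110, Gm42034 and Rps6-ps2 on its downstream side and Gm3134, Gm35358 and Gm35305 on its upstream side. Mir8110 is a miRNA gene, Rps6-ps2 a pseudogene, and the others long non-coding RNAs. The nearest protein-coding neighbours, named after the peaks were seen, are Cyld, a deubiquitinase gene, downstream and Tox3, an HMG-box gene, upstream. Positions were not carried between builds, so whether a site lies within one of these genes, and which gene it acts on, was not determined.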

How the data were processed

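Peak lists of 4 ChIP-seq libraries were analysed, 2 for Six2 and 2 for β-catenin. As deposited, each list belongs to 1 library and holds coordinates only (chromosome, start, end), so its values are positions and not counts. The submitters' processing notes name mm9 and CASAVA 1.6. The labels name an input library as the control of each ChIP library. Whether the calls used it, and with which caller and threshold, is not given there. Coordinates were read as BED intervals and are printed 1-based. Replicate numbers follow the accessions and pair no libraries.

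Peaks of all lists were merged on 1 bp of overlap, and midpoints were compared. The lists give no spread within a library, and with 2 libraries an antibody no test across libraries was made. The region, the lists and the settings were chosen with earlier results of these data known. Every site in more than 1 list was named, with the 3 leading sites of 1 list. The joining and run steps were tested on simulated data. Genes and promoters came from RefSeq (GRCm38.p6), where Sall1 was matched by symbol. Python 3.11.15, scipy 1.17.1 and matplotlib 3.10.9 were used.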

Additional observations from a re-analysis of the deposited data

How the results depend on the processing

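The run of 4 Six2 sites was the same size under each definition of overlap tried, while site 4 was not kept under one of them. A reciprocal overlap of 50% gave 11 sites, 4 reproducible Six2 sites and 2 sites of both antibodies, because site 4 fell into its 3 peaks and was then neither a reproducible β-catenin site nor one of both antibodies. With midpoints within 500 bp, none of these counts changed. Keeping the first 50% of each list gave 8, 3 and 2, and a run of 3. Within 250 kb of the start there were 4 sites, 0 reproducible Six2 sites, 1 site of both antibodies and a run of 0, as the run lies farther out. A window 100 kb wider on each side, tried after the data were seen, gave 13 sites, 6 reproducible Six2 sites and 5 sites of both antibodies instead of 3, with the run still at 4. Leaving out each library in turn gave 5 to 9 sites, 4 to 9 Six2 sites, 2 to 3 sites of both antibodies and a run of 4 to 5. The 5 sites came without Six2 replicate 1. With either Six2 library left out, every peak of the other counted as a Six2 site, so those counts do not measure reproducibility. The 9 Six2 sites and the run of 5 came without Six2 replicate 2. Without Six2 replicate 1, the 4 window peaks of replicate 2 gave the 4 sites and the run of 4. Dividing rows by list length left 1 of the 5 sites found in more than 1 list, site 7, at its place in their order, since sites 4 and 8 and sites 6 and 9 changed places. Measured from the lower end of Sall1, site 7 was 386 kb away rather than 366 kb. No paired analysis was possible because the labels give no replicate numbers and no test was made. Depth is unknown, so a missing peak does not show that binding was absent.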

Other observations

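Beyond the upper edge of the window, and therefore outside the counts above, 2 further sites within 100 kb of that edge had a peak in every list. The first spanned chr8:92130017-92130238, 560 kb upstream of the Sall1 start. It was row 828 in Six2 replicate 1, row 278 in Six2 replicate 2, row 71 in β-catenin replicate 1 and row 191 in β-catenin replicate 2, so that β-catenin replicate 1 ranked it ahead of site 7. The second spanned chr8:92183040-92183707, 613 kb upstream, with rows 309, 297, 157 and 583 in the same order of libraries. Both were noticed after the data were seen. With site 7, the nearest of them to the gene, 3 sites from 366 to 613 kb upstream were thus shared by all 4 lists. Over the series 126 of 7666 sites (1.64%) had a peak in every list. Other stretches of this length were not compared, and which gene these 3 sites act on was not determined.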
